A study of Ovis aries with 18 samples.

Results

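Solute carriers are membrane proteins that move metabolites, ions and fuels across the plasma membrane and the membranes of organelles. Brown adipose tissue burns fuel to make heat, so its mitochondria need carriers for citrate, phosphate and acylcarnitines in the SLC25 family, and its cells need carriers for glucose (SLC2), fatty acids (SLC27) and amino acids (SLC7 and SLC38). Allelic imbalance in expression (AI) is an unequal number of RNA-Seq reads from the 2 alleles of a heterozygous SNP. Because both alleles share the nucleus and the library, AI can report differences that act in cis on a single copy of a gene. The study also names imprinting, clonal monoallelic expression and poorer alignment of reads from the alternate allele as sources of unequal reads.

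The members were the autosomal SNPs whose gene symbol begins with SLC and a digit. They numbered 307 SNPs in 92 genes, of 24,355 SNPs in 5,810 genes. The SNPs had been selected by the study as heterozygous in several animals and lying within annotated genes. There were 35 SLC families, 27 genes with a single SNP and 7 with at least 10. The SNPs comprised 166 synonymous, 59 missense and 44 3' untranslated region variants, and positions are those of the sheep assembly Oar v3.1. The 92 symbols include 3 genes that are not themselves carriers (SLC4A1AP, SLC7A6OS and SLC9A3R1), with 8 SNPs.

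The tissue was perirenal adipose tissue (PRAT) from 18 singleton fetuses of pure bred merino sheep at day 132 of gestation, 16 female and 2 male. All were wild type and untreated, by 1 common sire out of unrelated ewes, so there was a single group and the animals shared paternal alleles. Each animal gave 1 library with 2,970,824 to 5,334,585 reads at all SNPs, of which 0.710% to 0.815% lay at solute carrier SNPs, and 131 to 184 of those SNPs were heterozygous per animal. The library of RS929, labelled female, was heterozygous at 29.1% of X-linked SNPs against 54.1% to 69.7% in the other 15 females and 25.4% and 32.4% in the 2 males, while no solute carrier SNP was on X. Of 10 adipocyte markers 7 were in the table, and of 6 kidney tubule markers there was 1, SLC5A2, itself a member. Of 5 adrenal cortex markers STAR was present, at 11.1 RPM (reads per 1,000,000 of a library's reads at all SNPs). No marker of red blood cells or skeletal muscle was in the table, which lists only genes with a qualifying SNP.

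At each SNP the reads of the reference and the alternate allele were summed over the animals called heterozygous and tested against equal shares with a likelihood ratio test, adjusted over the 24,244 SNPs with a heterozygous animal. The reference share is the part of those reads that carried the reference allele. AI was called at an adjusted P under 0.05 at 120 of 305 solute carrier SNPs, or 39.3%, against 38.0% of all SNPs. By direction, 82 SNPs had more reads from the reference allele and 38 from the alternate allele, which is 26.9% and 12.5% of those tested against 28.9% and 9.01% of all SNPs. With the median share of all SNPs (0.519) as the null in place of 0.5, the member counts were 50 and 55. This null is higher for every SNP of the table, and the matching shares over all SNPs were not counted. At gene level, 52 of the 92 member genes had at least 1 SNP with AI (56.5%, against 58.5% of all genes). The 2 SNPs left untested, both in SLC16A5, had no heterozygous animal. The summed test counts reads and not animals. At an unadjusted P under 0.05 there were 143 SNPs (46.9%, against 45.0% of all SNPs). A quasi-binomial F test that takes the spread between animals into account, with variances moderated by limma, called 80 SNPs (26.2%, against 24.5% of all SNPs). The exact sign-flip permutation test over animals called 39 (12.8%, against 12.1%). Its smallest possible P depends on the number of heterozygous animals, so SNPs with few of them cannot be called by it.

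Most imbalances were small. The median reference share was 0.518 in solute carriers and 0.519 over all SNPs, and 82 of the 120 called SNPs lay within 0.1 of equality (68.3%, against 68.1% of all called SNPs). A further 15 of the 120, in 7 genes, lay more than 0.2 from it, where 1,183 of 9,201 called SNPs of the whole table did. SNPs in 3' untranslated regions were called at 25 of 44 (56.8%, against 42.4% of all SNPs of that kind), but 10 of these were in SLC25A34 and without that gene 15 of 34 were called (44.1%). Missense SNPs were called at 19 of 58 (32.8%, against 41.1%) and synonymous SNPs at 58 of 165 (35.2%, against 34.4%).

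**Figure D1:**
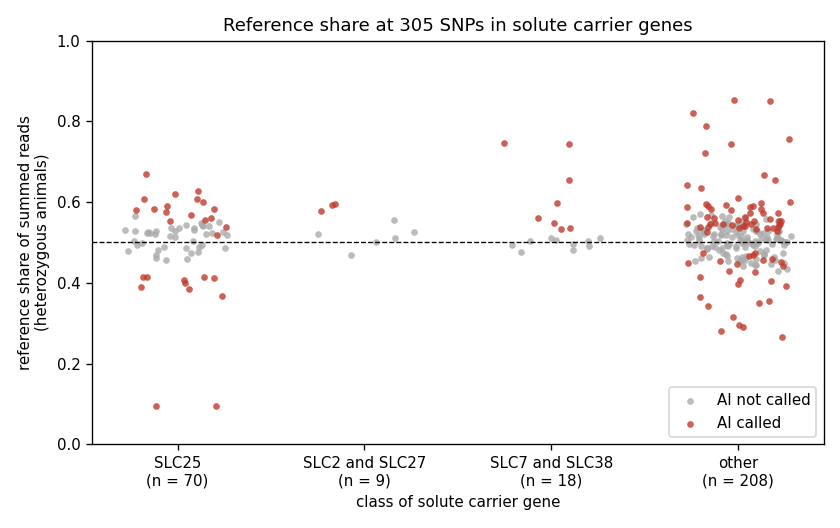
Reference share of the reads summed over heterozygous animals (vertical axis, no unit) at each of 305 tested SNPs (points), by class of solute carrier gene; red points have AI at an adjusted P under 0.05 and the dashed line marks equal shares. Most points lie between 0.4 and 0.6, and the 2 SLC25A3 SNPs stand lowest at 0.096.

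The SLC25 family held 21 genes and 70 SNPs, and AI was called at 28 of the 70, against 38.0% of all SNPs, in 12 genes (57.1%, against 58.5% of all genes). The reference allele was higher at 17 (24.3%, against 28.9%) and the alternate at 11 (15.7%, against 9.01%). Depth differed widely between members. SLC25A20, the carnitine-acylcarnitine carrier that brings long-chain fatty acids into mitochondria, had a median of 330 RPM at its SNP. SLC25A11, the oxoglutarate carrier, had 186, SLC25A1, the citrate carrier, 158, and SLC25A3, the phosphate carrier, 85.7 (median over its 2 SNPs). SLC16A5, a monocarboxylate transporter relative, had 108 RPM, while the SLC2 and SLC27 genes ranged from 6.56 in SLC2A8 to 26.3 in SLC2A3. The median solute carrier gene had 12.5 RPM. These are depths at single positions and do not depend on gene length, but they vary between SNPs of 1 gene. In RS910 the SLC25A34 SNPs at 49883593 and 49883813 had 33 and 189 reads.

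At SLC25A20 (chromosome 19, position 51028783, synonymous) the reference allele had 7,862 reads and the alternate 7,274 over 11 animals. The reference share ran from 0.499 to 0.537 in single animals, with a mean of 0.519 ± 0.012 (SD, n = 11), and was above 0.5 in 10 of 11 (exact sign-flip permutation P = 0.00195). This displacement is the size of the median of all SNPs, and against that median in place of 0.5 the call was lost (adjusted P = 0.894, chi-square). SLC25A11 (position 26075678) had 2,022 against 1,996 reads and a mean share of 0.502 ± 0.028 (SD, n = 5), with no AI called.

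SLC25A1 exports citrate from mitochondria for fatty acid synthesis. At its SNP (chromosome 17, position 71799013, in an intron of a non-coding transcript) the 9 heterozygous animals had 259 to 575 reference reads and 170 to 447 alternate reads. All 9 had more reference reads, with shares of 0.556 to 0.667 and a mean of 0.609 ± 0.031 (SD, n = 9, exact sign-flip permutation P = 0.00391, the smallest that 9 animals allow). The total reads of the animals followed the genotype. The 3 animals homozygous for the reference allele had 183 to 246 RPM, the 9 heterozygotes 95.0 to 189 and the 6 homozygous for the alternate allele 110 to 145. All heterozygotes but RS953 lay above the alternate homozygotes, and the heterozygotes reached the lowest reference homozygote. Regression of log2 RPM on the number of alternate alleles with limma gave a change of -0.39 ± 0.08 (SE) per allele, with an adjusted P of 0.00971 over 22,086 SNPs.

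SLC25A34, a mitochondrial carrier whose substrate is not settled, was the member with AI at the most SNPs. All 12 of its SNPs, which span 1.6 kb on chromosome 12 and are mostly in the 3' untranslated region, had AI, with the reference allele higher at 4 and the alternate at 8. At every one of the 12 the higher allele was the one carried by the homozygous animals. The share of that allele was 0.585 to 0.669 over the summed reads. At the top SNP (position 49884232) the 10 heterozygotes had 1,358 reference and 672 alternate reads, with shares from 0.579 to 0.779 and a mean of 0.674 ± 0.063 (SD, n = 10, exact sign-flip permutation P = 0.00195).

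The heterozygous animals of SLC25A34 fell into 2 genotype classes. In the 7 animals heterozygous at all 12 SNPs the median share of the homozygotes' allele over SNPs was 0.586 to 0.675. In RS917, RS947 and RS953, heterozygous at only 9 of them, it was 0.524 to 0.547. The classes did not overlap. At position 49883813 the means were 0.644 ± 0.032 (SD, n = 7) and 0.496 ± 0.033 (SD, n = 3), and the dispersion of that SNP between animals, the variance relative to counting error, was 6.52. The 12 SNPs share reads and animals and are not 12 independent measurements.

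**Figure D2:**
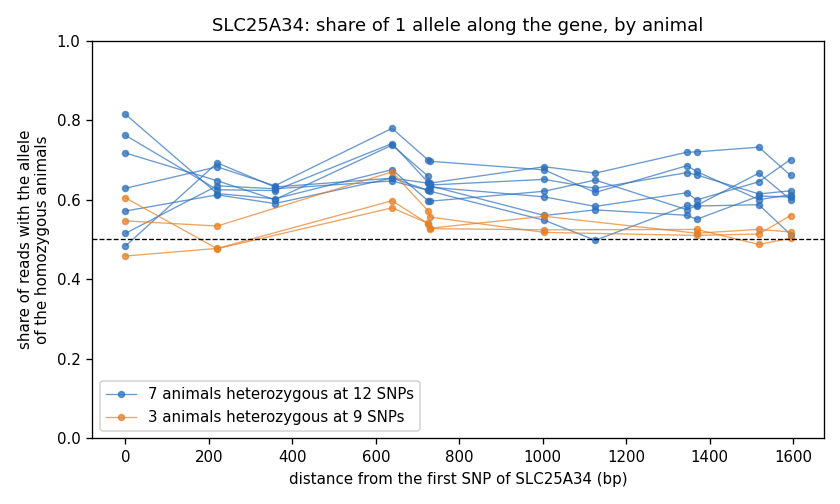
Share of reads with the allele that the homozygous animals of SLC25A34 carry (vertical axis) against distance from its first SNP in bp (horizontal axis), 1 line per heterozygous animal; the dashed line marks equal shares. The 7 animals heterozygous at 12 SNPs (blue) mostly run above the 3 heterozygous at 9 SNPs (orange), whose medians are 0.524 to 0.547.

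Total depth of SLC25A34 differed in the same direction. Over its 12 SNPs the median level was 60.1 to 76.5 RPM in the 8 animals homozygous throughout, 45.2 to 67.6 in the 3 of the second class and 35.8 to 56.9 in the 7 heterozygous at every SNP, so the first and the last did not overlap. At position 49884232 the median was 70.8 in reference homozygotes and 50.9 in heterozygotes, a change of -0.55 ± 0.12 (log2 per alternate allele, SE, limma, adjusted P = 0.0113). The heterozygotes had 33.7 RPM from the reference allele at the median, against 35.4 for each copy in the homozygotes, and 17.1 from the alternate allele. Of the 12 SNPs, 6 passed this test.

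SLC25A3, the carrier that supplies mitochondria with phosphate for ATP synthesis, had the shares farthest from equality of all members, but animals called homozygous had low shares of the same allele. At position 167803439 on chromosome 3 (synonymous) the 11 heterozygotes had 13 to 44 reference reads against 165 to 484 alternate reads, a mean share of 0.097 ± 0.015 (SD, n = 11, exact sign-flip permutation P = 0.000977). The adjacent missense SNP at 167803440 gave 0.096 ± 0.008 (SD, n = 5). The 7 animals called homozygous for the alternate allele at the first SNP still had 6.10% of their reads from the reference allele, from 3.16% to 7.55% in single animals, where the heterozygotes ran from 7.30% to 12.2%. The ranges of the 2 genotypes overlapped. At the median solute carrier SNP homozygotes had 0% of reads from the other allele.

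The remaining SLC25 members had smaller effects. SLC25A26, which carries S-adenosylmethionine, had a share of 0.627 at position 35227033, with 8 of 9 animals above 0.5 and 1 at it (exact sign-flip permutation P = 0.00781). SLC25A25, an ATP-Mg/phosphate carrier, had 2 adjacent SNPs on chromosome 3 that were heterozygous in all 18 animals with mirrored shares, 0.620 at 8066820 and 0.388 at 8066821. SLC25A24, a carrier of the same kind, had AI at 3 of 7 SNPs with the reference allele higher at each (0.576 to 0.584), and none of the 3 passed the quasi-binomial test. No SNP was called in SLC25A13 (aspartate-glutamate carrier, 4 SNPs), SLC25A38 (glycine carrier, 6 SNPs), SLC25A23 (4 SNPs) or SLC25A42 (coenzyme A carrier, 2 SNPs).

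**Figure D3:**
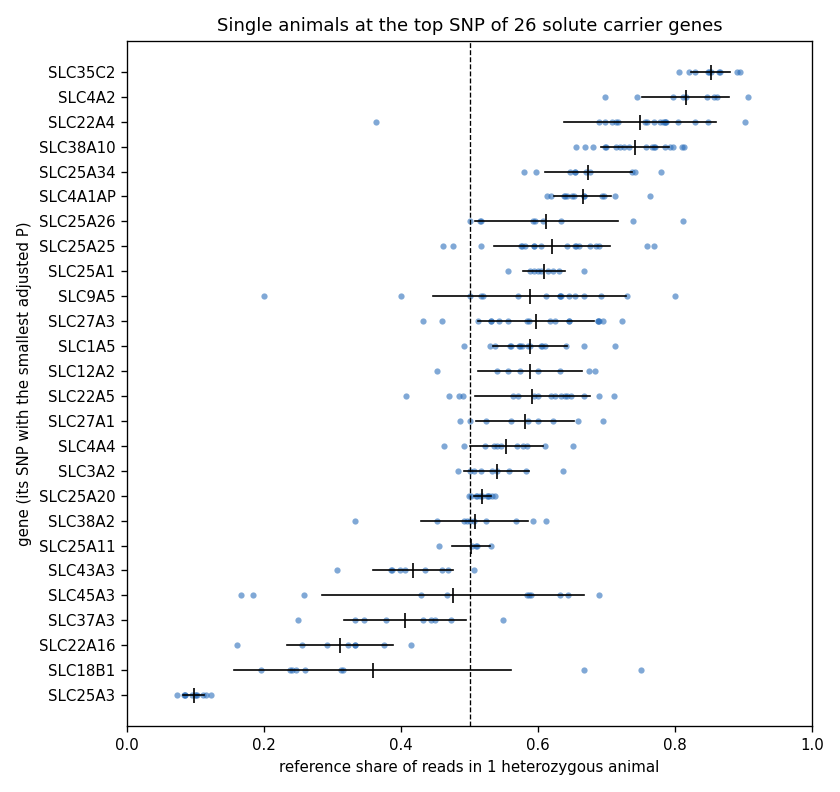
Reference share in single heterozygous animals (blue points, horizontal axis) at the SNP with the smallest adjusted P in each of 26 named solute carrier genes (vertical axis); black bars are the mean ± SD over animals and the dashed line marks equal shares. SLC25A3, SLC35C2 and SLC4A2 have all animals on one side and far from 0.5, while SLC18B1 and SLC45A3 have animals on both sides.

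The glucose and fatty acid carriers were thinly represented, with 9 SNPs in 5 genes, and AI was called at 3 SNPs (33.3%, against 38.0% of all SNPs) in 2 genes, with the reference allele higher at each. SLC27A1, the fatty acid transport protein of muscle and fat, had 184 reference and 134 alternate reads in 9 animals (share 0.579, mean 0.581 ± 0.071, SD). It was above 0.5 in 7 and below in 1 (exact sign-flip permutation P = 0.0156). It lost its call in the quasi-binomial test (limma-moderated, adjusted P = 0.0628) and without RS929 (adjusted P = 0.0663, chi-square). SLC27A3, an acyl-CoA synthetase of the same family, had a missense SNP at position 102769401 that was heterozygous in all 18 animals with a mean share of 0.597 ± 0.085 (SD, n = 18), above 0.5 in 16. The glucose transporters SLC2A3 (1 SNP, 0.512) and SLC2A8 (2 SNPs, 0.520 and 0.468) and the acyl-CoA synthetase SLC27A2 (2 SNPs, 0.501 and 0.526) had no AI called.

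The amino acid carriers of SLC7 and SLC38 had AI at 8 of 18 SNPs (44.4%, against 38.0% of all SNPs), and all 8 were in SLC38A10, 1 of 5 genes. SLC38A10 had 2 kinds of SNP. At 3 SNPs every animal was called heterozygous, with shares of 0.746 (50631606, missense), 0.743 (50636623) and 0.655 (50636624) on chromosome 11. At the first of these the share ran from 0.649 to 0.805 with a mean of 0.743 ± 0.047 (SD, n = 18), above 0.5 in all 18 (permutation by sign flips, P = 7.63e-06, the smallest that 18 animals allow). No homozygous animal exists there to compare. At the other 6 SNPs 12 animals were heterozygous, with shares from 0.493 to 0.598, and 5 of the 6 were called. The largest, at 50636874, had a mean of 0.593 ± 0.049 (SD, n = 12), above 0.5 in all 12 (exact sign-flip permutation P = 0.000488). Total reads there fell with each alternate allele, from 55.1 RPM at the median in 3 reference homozygotes to 46.6 in the 12 heterozygotes and 37.1 in 3 alternate homozygotes (-0.33 ± 0.08 log2 per allele, SE, limma, adjusted P = 0.0198).

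SLC38A2, the main sodium-coupled neutral amino acid transporter, had no AI called at its 4 SNPs, with summed shares of 0.503 to 0.511. At position 139944734 its mean was 0.507 ± 0.079 (SD, n = 10), but single animals ran from 0.333 to 0.611. Their dispersion was 2.62, beyond counting error (chi-square of heterogeneity, adjusted P = 0.0364). SLC7A7 (0.496) and SLC38A1 (0.490) were not called either. SLC3A2, the heavy chain that partners the SLC7 light chains, had a share of 0.541 with 447 against 379 reads (adjusted P = 0.0476, likelihood ratio chi-square). Its quasi-binomial adjusted P from limma was 0.135, and without RS929 the likelihood ratio adjusted P (chi-square) was 0.061. SLC1A5, the glutamine and neutral amino acid transporter, had AI at 6 of 10 SNPs, all of them synonymous and heterozygous in 16 or 17 animals. The reference allele was higher at 5 and the alternate at 1 (52938997, share 0.475), and 4 of the 6 passed the quasi-binomial test. The strongest, at 52940472, had a mean share of 0.589 ± 0.054 (SD, n = 16), above 0.5 in 15 of 16 animals (permutation by sign flips, P = 6.1e-05). The 4 SNPs heterozygous in 7 animals were not called.

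Carriers of carnitine and related organic cations in SLC22 had AI at 18 of 23 SNPs, where 38.0% of all SNPs did, and 10 of the 18 were neighbouring SNPs of 1 gene. SLC22A4, which carries ergothioneine, had AI at all 10 SNPs. At 6 of them between 9 and 12 animals were heterozygous, and at each of those 6 the allele more often homozygous in the other animals was the higher one, with a share of 0.650 to 0.788. At the missense SNP 19649665 on chromosome 5 the reference reads were 7 to 51 and the alternate reads 3 to 17 per animal, with a mean share of 0.772 ± 0.109 (SD, n = 9, exact sign-flip permutation P = 0.00391). RS930 stood apart. Its share was 0.538 there (7 reference and 6 alternate reads), and at 4 other SNPs of this block (19647434 to 19647533) it lay on the other side of 0.5 from the remaining 8 animals. At 19646207, where RS930 was homozygous, RS929 (0.512) and RS940 (0.583) lay on the other side of 0.5 from the other heterozygotes.

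The last 4 SNPs of SLC22A4, within 22 bp at positions 19681937 to 19681959, were heterozygous in all 18 animals, with shares of 0.635 to 0.756. RS930 was again the lowest of the 18 at 0.304 to 0.364, but not the only animal below 0.5. At 19681937, 19681938 and 19681943, 4 animals lay below it: RS930, RS940 (0.386 to 0.405), RS929 (0.4 to 0.464) and RS947 (0.435). RS930 had 7 reference and 16 alternate reads at each of these. At 19681959 RS930 alone lay below 0.5, with 8 reference and 14 alternate reads. At 19646207 the median was 12.6 RPM in 12 heterozygotes (9.08 to 14.1) and 15.6 in 5 alternate homozygotes (12.9 to 23.5), and the only reference homozygote, RS930, had 4.15. The regression gave 0.67 ± 0.13 log2 per alternate allele (SE, limma, adjusted P = 0.00383), but without RS930 it gave 0.43 ± 0.13 and the call was lost (limma, adjusted P = 0.0692). SLC22A5, the high-affinity carnitine transporter whose gene lies next to SLC22A4, had AI at 1 of 4 SNPs (0.592 ± 0.084, SD, n = 17, above 0.5 in 13). SLC22A16, a carnitine transporter, had a missense SNP at 26878234 with 118 reference and 256 alternate reads. The alternate allele was higher in 8 of 8 animals (mean reference share 0.311 ± 0.078, SD, n = 8, exact sign-flip permutation P = 0.00781). SLC22A3, an organic cation transporter, had AI at all 4 SNPs with shares of 0.532 to 0.552.

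In the bicarbonate family SLC4A2, an anion exchanger, had a share of 0.820 at 1 synonymous SNP (chromosome 4, position 113040877). The 9 heterozygotes had 30 to 61 reference and 5 to 13 alternate reads (mean share 0.816 ± 0.064, SD, exact sign-flip permutation P = 0.00391). In the same 9 animals the SNPs 65 bp and 103 bp away had shares of 0.486 and 0.510, and those 843 bp and 949 bp away on the other side 0.519 and 0.526. A further SNP of the gene, 1,924 bp away at 113042801, was imbalanced the other way, with a share of 0.356 in these 9 animals and 0.344 over the 18 in which it was heterozygous (mean 0.350 ± 0.111, SD, n = 18, below 0.5 in 16). RS917 and RS943, called homozygous for the reference allele at 113040877, had 72 against 11 and 56 against 5 reads at that SNP. SLC4A4, the sodium bicarbonate cotransporter, had 12 SNPs and AI at 8, all small and in both directions (0.456 to 0.555), and at its top SNP the mean was 0.554 ± 0.053 (SD, n = 11, exact sign-flip permutation P = 0.00879). The quasi-binomial test called 3 SNPs of SLC4A4 and the sign-flip test, after adjustment, 0.

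SLC4A1AP, a nuclear protein named for binding the anion exchanger and not a carrier, had one of the most uniform imbalances. At position 34584196 on chromosome 3, a synonymous SNP in a splice region, the reference share ran from 0.613 to 0.764 in 13 of 13 heterozygotes, with a mean of 0.666 ± 0.042 (SD, n = 13, exact sign-flip permutation P = 0.000244). The 13 heterozygotes had 12.5 to 22.2 RPM and the 5 alternate homozygotes 9.96 to 13.1 (-0.57 ± 0.12 log2 per allele, SE, limma, adjusted P = 0.00723).

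SLC43A3, a purine nucleobase transporter, had AI at 8 of 11 SNPs with the alternate allele higher at each. The quasi-binomial test called 5 of its SNPs and the sign-flip test, after adjustment, 0. The shares were 0.415 to 0.453 at the 6 called SNPs in introns of a non-coding transcript and 0.364 and 0.355 at 2 in its exon. At 77895924 on chromosome 15 the alternate allele was higher in 6 of 6 animals (0.356 ± 0.032, SD, n = 6, exact sign-flip permutation P = 0.0312, the smallest that 6 animals allow). Here the 6 heterozygotes had 13.5 to 16.5 RPM and the 12 reference homozygotes 7.04 to 14.6 (0.52 ± 0.13 log2 per alternate allele, SE, limma, adjusted P = 0.0235). In contrast to SLC25A34, the allele more often homozygous was the lower one at all 8 called SNPs.

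SLC35C2, a Golgi protein linked to GDP-fucose, had 2 adjacent SNPs on chromosome 13 with shares of 0.852 (74625462, missense) and 0.850 (74625463). At the first the heterozygotes had 32 to 90 reference and 7 to 20 alternate reads (mean 0.852 ± 0.028, SD, n = 10). The 8 animals called homozygous for the reference allele had 9.52% of their reads from the alternate allele, 3.37% to 13.4% in single animals, while the heterozygotes had reference shares of 80.6% to 89.5%. As in SLC25A3, the 2 genotypes overlapped in share.

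Among members, dispersion between animals was largest at SNPs of SLC45A3, SLC25A34 (described above) and SLC18B1. SLC18B1, a polyamine transporter of vesicles, had 154 reference and 378 alternate reads at its SNP (chromosome 8, position 57996793) and a dispersion of 5.83. The alternate allele was higher in 7 animals, with reference shares of 19.6% to 31.5%, and the reference allele in RS902 (75%) and RS903 (66.7%). The exact sign-flip permutation P was 0.0586. Reads from the reference allele ran up to 5.34 RPM in these animals and those from the alternate allele up to 18.2, so the spread between animals was mostly that of the alternate allele. The 9 reference homozygotes had 4.12 to 8.81 RPM in all, and the genotype regression gave 0.82 ± 0.26 log2 per alternate allele (SE, limma, adjusted P = 0.0811, and 0.0329 without RS902).

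SLC45A3, a putative sugar transporter, had a dispersion of 8.89 at position 2726818, the largest of all members. Of its heterozygotes, 6 had more reference reads and 5 more alternate reads (mean 0.475 ± 0.191, SD, n = 11, exact sign-flip permutation P = 0.671), while the summed share of 0.408 was called by the likelihood ratio test (adjusted P = 9.61e-05, chi-square). The 3 animals with reference shares of 16.7% (RS903), 18.4% (RS926) and 25.9% (RS947) had 11.2 to 21.4 alternate RPM, and no other heterozygote had more than 6.72. At its second SNP, heterozygous in 9 animals, no AI was called (0.441). Across members, 52 of 305 SNPs differed between animals beyond counting error, where 15.4% of all SNPs did.

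**Figure D4:**
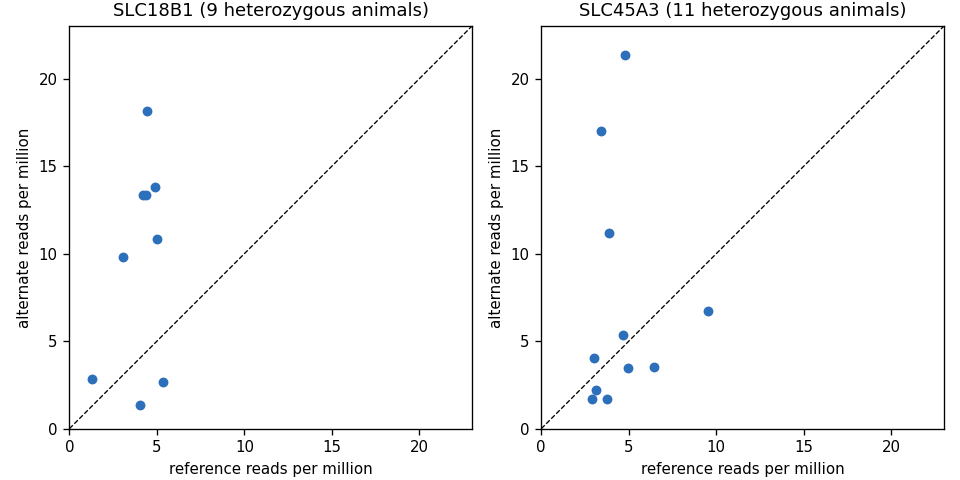
RPM from the reference allele (horizontal axis) and from the alternate allele (vertical axis) in each heterozygous animal (points) at the top SNP of SLC18B1 and SLC45A3; the dashed line marks equal numbers. The reference allele stays below 10 RPM in all animals, while the alternate allele reaches 18.2 in SLC18B1 and 21.4 in SLC45A3.

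Of the other named genes, SLC12A2, the sodium-potassium-chloride cotransporter, had AI at 1 of 9 SNPs (0.589 ± 0.076, SD, n = 8, exact sign-flip permutation P = 0.0234). That SNP lost its call in the quasi-binomial test (limma-moderated, adjusted P = 0.0559). SLC37A3, a sugar phosphate transporter of the endoplasmic reticulum family, had the alternate allele higher at 1 of 4 SNPs in 8 of 9 animals (0.406 ± 0.089, SD, n = 9, exact sign-flip permutation P = 0.0117). SLC9A5, a sodium/proton exchanger, had a mean share of 0.588 ± 0.141 (SD, n = 16) at 34238388, with 13 animals above 0.5 and 2 below.

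Total reads followed the number of alternate alleles at 15 of 281 solute carrier SNPs tested (5.34%, against 3.78% of all SNPs). They lay in 7 genes, of which SLC25A34 had 6 SNPs, SLC43A3 had 3, SLC26A10 had 2 and SLC22A4, SLC25A1, SLC38A10 and SLC4A1AP had 1 each. Of the 15 SNPs 14 also had AI, and at each of the 14 the allele with more reads in heterozygotes was the one whose carriers had more reads in total, as at 685 of 695 SNPs of the whole table. These SNPs had passed both tests. Among all member SNPs with AI that could be tested for genotype, the directions matched at 79 of 99 (79.8%, against 80.5% of all SNPs). The 2 measures come from the same aligned reads but from different contrasts, within and between animals. The exception was SLC26A10 at 161757945, where reads rose from 21.6 RPM in 15 heterozygotes to 31.1 in 3 alternate homozygotes (0.47 ± 0.13 log2 per allele, SE, limma, adjusted P = 0.0419) with a share of 0.483 that was not called. When each library was left out in turn, the calls in SLC25A1 and SLC4A1AP and 5 of the 6 in SLC25A34 held throughout. The SNP of SLC38A10 was lost without RS917 (limma, adjusted P = 0.0533) or RS943 (0.0758), SLC43A3 at 77895924 without RS937 (0.0578), and the remaining SNPs of SLC25A34, SLC43A3 and SLC26A10 were lost without any of several libraries.

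**Figure D5:**
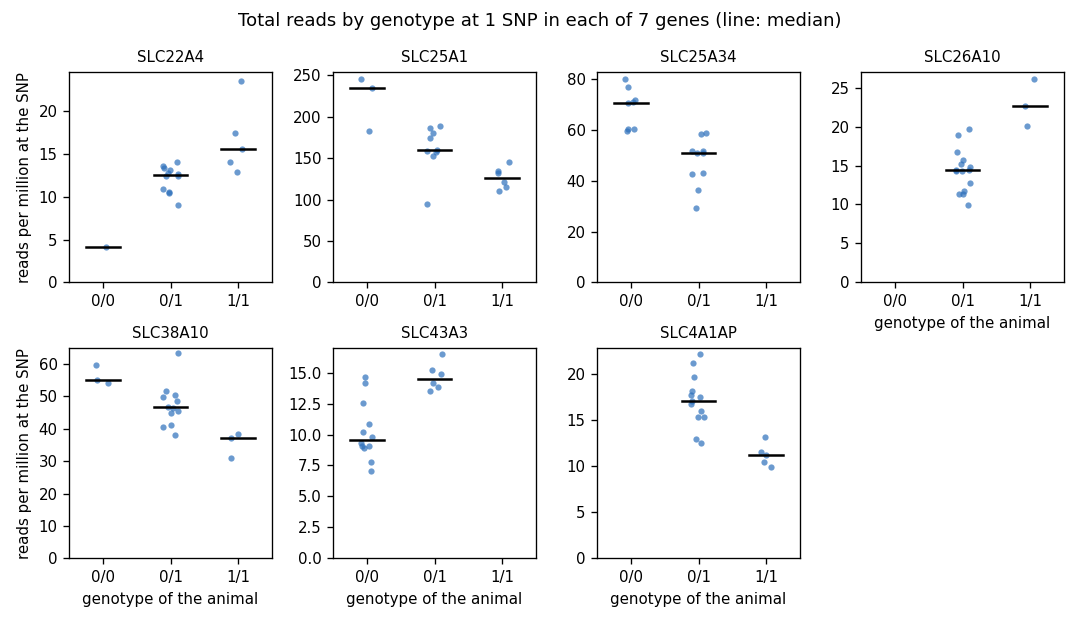
RPM at 1 SNP (vertical axis, from 0) by genotype (0/0 reference homozygotes, 0/1 heterozygotes, 1/1 alternate homozygotes) in 7 genes whose total reads followed the genotype; each point is 1 of 18 animals and lines are medians. The single 0/0 animal of SLC22A4 is RS930. In SLC25A1 the medians step down from 235 to 160 and 126, and in SLC25A34 from 70.8 to 50.9.

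The 15 called SNPs more than 0.2 from equality were examined for 3 properties measured on the same table. Of the 15, 3 were heterozygous in at least 15 of 18 animals, 6 had another SNP within 5 bp and 6 had over 1% of reads from the other allele in homozygotes. At least 1 of these held for 9 SNPs, and 6 had none, 5 in SLC22A4 and 1 in SLC18B1. Over all SNPs 191 of 1,183 had none (16.1%). Among members heterozygous in at least 15 animals AI was called at 24 of 28 (85.7%, against 68.2% of all such SNPs). Where the alternate allele was the one more often homozygous, it was the higher one at 21 of 35 called member SNPs, 8 of them in SLC25A34 and 4 in SLC22A4, against 26.2% of all such SNPs. The part of these properties in the imbalance was not tested.

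Transporters and partners without an SLC symbol were represented by 8 of 17 listed genes and 30 SNPs, with AI at 16 (53.3%, against 38.0% of all SNPs), 14 of them with the reference allele higher. The quasi-binomial test called 6 of the 30 (limma, against 24.5% of all SNPs) and the exact sign-flip permutation test 1 (3.33%, against 12.1%). UCP1, the uncoupling protein of brown fat, was read at 2,803 RPM at the median of 5 SNPs, and its shares were 0.504 to 0.537. CPT1A, which makes the acylcarnitines that SLC25A20 carries, had AI at 5 of 10 SNPs (0.466 to 0.556), and CPT2, which reverses that step in mitochondria, at none of 4. CPT1B had 1 SNP with a share of 0.882. Of 20 carriers listed by role, 10 were in the table, and the ADP/ATP carriers SLC25A4, SLC25A5 and SLC25A6 and the glucose transporters SLC2A1 and SLC2A4 were not analysed here.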

How the data were processed

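The authors sequenced RNA of PRAT from 18 fetuses as 100 bp paired ends without strand information, aligned the reads to Oar v3.1 with STAR, called variants with GATK 3.4-46 (tools and version per the submitters' processing notes) and deposited whole-number read counts of the reference and alternate allele with a genotype for each animal at 24,355 SNPs. The table also holds 4 columns of the authors' own tests and summaries (a chi-square statistic, a P-value, the higher allele and a pooled proportion), which were not used. One column pair is headed PS910 and was taken as RS910, the only animal with that number.

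Counts were used as deposited. At every SNP the reads of heterozygous animals were tested against equal shares by a likelihood ratio test (chi-square, 1 df), with Benjamini-Hochberg adjustment over all SNPs and a threshold of 0.05. The between-animal tests were a quasi-binomial F test (limma 3.58.1 variance moderation, R 4.3.3), an exact two-sided sign-flip permutation test of the share minus 0.5, and a Pearson chi-square of heterogeneity. Levels are reads at a SNP per 1,000,000 reads of the library at all SNPs (RPM). The genotype regression, added after the data were seen, used log2(RPM + 0.5) and limma at SNPs with at least 3 animals in at least 2 genotypes, and understates the change of low genes. The likelihood ratio test covers counting error only, and reads are not independent molecules. The likelihood ratio, quasi-binomial, sign-flip and regression tests were checked on simulated data.

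No pair of libraries agreed within sampling noise (153 pairs). The members, gene lists and tests were chosen with earlier results of these data known. Named genes were 20 carriers listed by role where in the table, the genes with top SNPs farthest from equality in each class (called by both models), those called in both directions, those with the most SNPs or the largest dispersion, and the most displaced missense or splice SNPs. Outside this rule, SLC26A10, SLC50A1, SLC16A5, SLC25A24, SLC22A3 and CPT1B were named after their values were seen. In RefSeq (ARS-UI_Ramb_v3.0, used for gene names and spans only) 90 of 92 symbols matched. The spans of 29 genes overlapped another gene, among them SLC25A3, SLC25A20, SLC4A2, SLC22A5, SLC3A2, SLC45A3 and SLC9A5. Whether the SNPs lie in the overlaps was not checked. Reads in such an overlap cannot be told from the other gene's without strand. Alternatives covered coverage minimums, the null share, the test, the adjustment, depth, SNP filters and left-out libraries.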

Additional observations from a re-analysis of the deposited data

Results flagged for a closer look

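At 10 solute carrier SNPs, animals called homozygous, whose reads the test of AI did not use, had over 1% of their reads from the other allele (median over members 0%; 3.41% of members were over 1%, against 4.51% of all SNPs). The percentages were 2.39 (55343380) and 24.4 (55343418) in SLC16A5, a monocarboxylate transporter relative with no heterozygous animal at either SNP, 6.10 and 6.32 in SLC25A3, 1.24 in SLC26A10 (161757945), 9.52 and 9.70 in SLC35C2, 3.43 in SLC4A2, and 40.7 (103922791) and 17 (103922795) in SLC50A1, a sugar transporter. At 55343418 the other allele took 18.8% to 28.5% of reads in each of 18 animals. At 103922791 the 5 homozygous animals with at least 20 reads had reference shares of 52.8% to 70.5%, within or above the 38.9% to 60.5% of the 13 heterozygotes. At 17 named SNPs with 4 to 10 heterozygous animals, no single animal lay far enough from the rest to pass the 95% limit of Dixon's test. SLC22A4 entered this test with 19649665 only. At its SNP 19647434, not among the 17, RS930 had a reference share of 0.72 and the other heterozygotes 0.164 to 0.372.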

How the results depend on the processing

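No paired analysis was possible because there is a single group of animals. Under a minimum of 30 reads per allele in 5 animals, 70 SNPs had AI (48 reference higher, 22 alternate higher, 26 genes, 0 in SLC2 and SLC27, 44 in other carriers). Fewer SNPs were tested there, but their number and the matching share over all SNPs were not counted. The same holds for the other alternatives here except the quasi-binomial and sign-flip tests, whose shares over all members are given above. With the null at the median share, 50 SNPs had the reference allele higher. The quasi-binomial test gave 54 with the reference higher, 1 in SLC2 and SLC27 and 49 in other carriers. The sign-flip test gave 39 (31 and 8 by direction, 19 genes, 14 in SLC25, 1 in SLC2 and SLC27, 18 in other carriers). Its P has a floor set by the number of heterozygous animals. SLC22A16 at 26878234, with 8 of 8 animals on one side, had an exact sign-flip permutation P of 0.00781 and was not called after adjustment. How much of the drop this floor accounts for was not tested. After down-sampling to 50 reads, 51 had the reference higher, with 5 in SLC7 and SLC38 and 49 in other carriers. Without SNPs heterozygous in at least 15 animals, SLC7 and SLC38 had 5. Leaving out each library in turn gave 113 to 122 SNPs (76 to 85 and 34 to 39 by direction), 49 to 54 genes, 25 to 30 in SLC25, 2 to 4 in SLC2 and SLC27, 8 in SLC7 and SLC38 and 75 to 81 in other carriers. Of 260 values at the top SNPs of named genes, 230 kept their call and direction, 26 lost the call and 4 changed side, all at uncalled SNPs: SLC25A11 (0.503 against the median null and 0.448 down-sampled) and SLC38A2 (0.510 and 0.488). SLC3A2 lost its call under 7 alternatives and SLC27A1 under 4. Total reads followed the genotype at 17 SNPs with a pseudocount of 2, 15 with median-of-ratios scaling and 10 to 18 when each library was left out. The SNP 49884939 of SLC25A34 was lost without any 1 of 14 libraries, 77895907 and 77884859 of SLC43A3 without any 1 of 15 and 8, and 161757945 and 161758718 of SLC26A10 without any 1 of 13 and 3, where some left too few homozygotes to test. Depth limits most members, which had a median of 60.5 reads per heterozygous animal.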
